A study of Rattus norvegicus with 7 samples.

Results

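The 364 gene models described here have the size and structure of olfactory receptor coding sequences and lie on rat chromosomes 5, 8, 10, 13, 15 and 20. They were chosen from the annotation alone, with no use of expression values: of 29630 models in all, those that follow the authors' block of V1R models, have 1 exon entry, a length from 900 to 990 bases that is divisible by 3, and one of these 6 chromosomes. Their class is inferred from structure. The files give Ensembl identifiers without gene names, so that no model can be named as a given receptor, and other genes with a short single coding exon can be among them. A model of this length has little room beyond a coding sequence, so that reads from untranslated exons outside it were not counted for it.

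Olfactory receptors are G protein-coupled receptors that bind odorants. Their coding sequence usually lies in a single exon of about the same size in every member of the family, and their genes stand in large tandem clusters on many chromosomes. They are best known from the sensory neurons of the main olfactory epithelium, where a neuron expresses a single receptor, whereas most neurons of the vomeronasal organ express vomeronasal receptors of type 1 (V1R) or type 2. A few odorant receptors have also been described in vomeronasal neurons of rodents.

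Polyadenylated RNA came from the vomeronasal epithelium of 7 male Lewis rats (LEW/Crl), 8 weeks old, whose blood was washed out with heparin under anaesthesia, and gave 1 stranded library per rat. There was 1 group only, so that models, chromosomes and clusters were compared within the same animals and the rats give the spread. A library is whole tissue: fewer cells of a type and less RNA per cell cannot be told apart in any level below. Markers of vomeronasal neurons, of the main olfactory epithelium and of other cell types could not be looked up without gene names, so that the labelled tissue was checked only by the V1R block, of which 105 of the 115 models without a pseudogene name were detected. Libraries held 64085829 to 74924005 counts, and all 21 pairs of libraries differed by more than counting noise (chi-square of at least 11.96 per degree of freedom). Rat 5 stands apart from the other 6 rats in many of the values below, and the sum over clustered models and the variability are also given without it.

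Levels are given as CPM, the counts per 1000000 counts of the library. Most of these models had few or no counts. Detected means at least 10 counts in at least 4 of the 7 rats. By that rule 26 of the 364 models (7.14%) were detected, against 56.3% of all 29630 models, 17.7% of all single-exon models and 9.45% of the 1154 single-exon models of the same size on every chromosome. A further 26 models reached 10 counts in 1 to 3 rats, and 312 reached them in none. No count at all was found for 83 models, which allows up to 0.00622 CPM over the 7 rats, a limit that covers counting error only. The detected models ranged from 0.126 to 23.5 CPM in their mean over rats. At the threshold, the lowest detected model was ENSRNOG00000030412 on chromosome 10 (12609711–12610649, RGSC3.4) at 0.126 ± 0.0525 CPM and the highest model that was not detected was ENSRNOG00000029420 on chromosome 20 (1461057–1461995) at 0.159 ± 0.0658 CPM (SD, n = 7 each), so that models near it cannot be ordered by their detection. Rank order over the 364 models was moderately alike between rats, with Spearman's rho of 0.609 to 0.754 over the 21 pairs of rats, a description across models that are not independent.

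Shared reads limit some of these calls. Reads with more than 1 match in the genome were split between their matches, so that near-identical receptor copies share reads. All counts were whole numbers in 14 of the 26 detected models, among them 3 of the 11 on chromosome 10. For the other 12 the level is uncertain, since a silent copy can be credited with reads of an expressed one.

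On chromosome 15, 7 of 36 models (19.4%) were detected, on chromosome 10 11 of 102 (10.8%), and on chromosome 20 4 of 46 (8.70%). Chromosome 5 had 2 of 28 (7.14%), chromosome 13 had 1 of 21 (4.76%) and chromosome 8 had 1 of 131 (0.763%). Models are not replicates, so these shares were not tested against each other. Chromosome 8 thus held the most models and, with chromosome 13, the fewest detected ones. Its 130 models other than the detected one had means of 0 to 0.114 CPM, and 54 of them had no count.

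**Figure D1:**
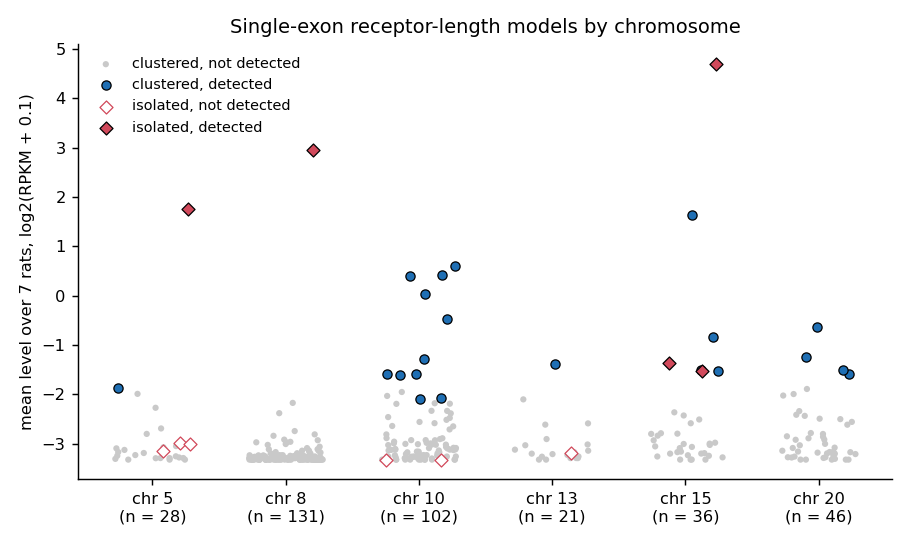
Each point is 1 of the 364 models, placed by chromosome (x axis; horizontal scatter within a chromosome carries no value) and by its mean level over 7 rats as log2(RPKM + 0.1) (y axis). Circles are models with another member within 500 kb and diamonds are isolated ones; blue circles and filled red diamonds mark the 26 detected models. The 3 highest points, on chromosomes 15, 8 and 5, are isolated models.

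The summed level followed a handful of models and not the number detected. Together the 364 models had 52.5 ± 8.00 CPM (SD, n = 7), with a lowest rat at 42.9, a median of 52.7 and a highest at 66.2 CPM. Chromosome 15 alone held 28.4 ± 3.94 CPM, that is 54.2% ± 1.22 of the sum (SD, n = 7). Chromosome 10 had 8.66 ± 2.73, chromosome 8 had 8.16 ± 0.525 and chromosome 5 had 3.91 ± 0.182 CPM (SD, n = 7 each). Chromosome 20 followed with 2.701 ± 0.868 and chromosome 13 with 0.674 ± 0.159 CPM (SD, n = 7 each). This order depends on models with shared reads. Over models with whole counts in every rat, the sum was 21.1 CPM and chromosome 8 led with 7.96 CPM. Chromosome 15 then had 4.49, chromosome 5 had 3.77 and chromosome 10 had 3.04 CPM. On chromosomes 15, 8 and 5 most of the sum came from a single model. Without isolated models, which are described next, chromosome 10 led with 8.66 CPM, chromosome 15 had 4.41, chromosome 8 had 0.853 and chromosome 5 had 0.633 CPM. That lead is uncertain, since 8 of the 11 detected models of chromosome 10 held fractions of shared reads. The 4 detected clustered models of chromosome 15 all had whole counts. On RPKM, which divides CPM by the model's length in kilobases, the 10 highest models held 81.5% ± 2.59 of the sum (SD, n = 7), the highest held 45.8%, 2 models made up 50% and 33 made up 90%.

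A cluster was taken as a run of these models on 1 chromosome with at most 500 kb between neighbours. This gave 21 clusters of 2 to 47 models, holding 353 models, and 11 models that stood alone. Of the clustered models 21 (5.95%) were detected and of the isolated ones 5 of 11 (45.5%). The 11 isolated models summed to 34.6 ± 1.68 CPM and the 353 clustered ones to 17.9 ± 7.12 CPM (SD, n = 7 each). Large tandem clusters are the usual setting of olfactory receptor genes, so that the inference of class from size has the least support for the isolated models.

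Isolated models included the 3 highest of all. ENSRNOG00000005869 on chromosome 15 (11879545–11880450, plus strand) had 21.6 CPM in its lowest rat, a median of 23.7 and 25.3 in its highest. It lies inside the span of the minus-strand model ENSRNOG00000005883, which has 65 exon entries and 19.0 CPM, and overlaps none of these entries. Its counts held fractions of shared reads, so that its level is uncertain. It is 504 kb from the nearest other member, close to the 500 kb limit: with a limit of 1 Mb it counts as clustered, and the sums become 41.4 CPM for clustered and 11.1 CPM for isolated models.

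ENSRNOG00000022540 on chromosome 8 (114071552–114072502, minus strand) had a lowest value of 6.88, a median of 7.25 and a highest of 7.83 CPM, with whole counts in every rat. It is 70931 kb from the nearest other member and 0.251 kb from ENSRNOG00000020667, a model of 8 exon entries on the other strand at 71.6 ± 2.84 CPM (SD, n = 7). ENSRNOG00000019979 on chromosome 5 (172834771–172835748, minus strand) had a lowest value of 3.04, a median of 3.20 and a highest of 3.36 CPM, also with whole counts. It is 0.345 kb from ENSRNOG00000019981, which has 7 exon entries on the other strand and 125.3 ± 5.90 CPM (SD, n = 7). The highest rat exceeded the lowest by 1.17, 1.14 and 1.11 times in these 3 models, so that the rats hardly differed. Of the other 8 isolated models 2, both on chromosome 15, were detected: ENSRNOG00000015042 (53647500–53648429) at 0.269 ± 0.115 CPM and ENSRNOG00000009703 (32344133–32345077) at 0.232 ± 0.0947 CPM (SD, n = 7 each). The remaining 6 summed to 0.0710 ± 0.0389 CPM (SD, n = 7).

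The 3 highest models, all isolated, lay next to another expressed model. They were 0 to 0.345 kb from the nearest detected model with more than 1 exon entry, whereas the 21 detected clustered models were 7.23 to 424 kb away (median 41.1 kb) and the 332 clustered models that were not detected 2.17 to 769 kb (median 165 kb). The other 2 detected isolated models were up to 58.6 kb away, and the 6 isolated models that were not detected were 0.94 to 272 kb away. At 0.94 kb, ENSRNOG00000009540 had a neighbour of only 2.03 CPM. The neighbour had 19.0 CPM for ENSRNOG00000005869 and 125 CPM for ENSRNOG00000019979. A further 4 clustered models that were not detected lay within 5 kb, at 2.17 kb or more. These cases are thus not matched to the 3 highest models in distance or in level of the neighbour. The part of such neighbours in the levels was not tested. In other features, median length was 945 bases in detected and 939 in the other clustered models, 10 of 21 and 171 of 332 were on the plus strand, and 5 of 21 (23.8%) and 37 of 332 (11.1%) were the first or last model of their cluster.

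Clusters were compared by their detected members and summed level. Of the 21 clusters 12 had a detected model and 9, with 154 models, had none. All 5 clusters of chromosome 8 were among the latter, with 4, 36, 14, 47 and 29 models. The 4 large ones, of 14 or more models, had summed levels of only 0.119 to 0.285 CPM. The largest cluster elsewhere, 44 models near the start of chromosome 20 (92810–1543758), had 3 detected models and 2.18 ± 0.822 CPM (SD, n = 7). Within it the highest model held 14.0% of the summed level, so that no member dominated.

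On chromosome 10, 32 models at 44095885–45108767 had 4 detected members and 3.29 ± 0.635 CPM, and 15 models at 34219857–34998982 had 3 and 2.45 ± 0.658 CPM (SD, n = 7 each). A chromosome 10 cluster of nearly the same size, 29 models at 60234204–61659739, had 1 detected member and 1.19 ± 0.409 CPM (SD, n = 7). The 20 clustered models of chromosome 13 (89170387–90146437) held 0.664 ± 0.163 CPM and 1 detected member, ENSRNOG00000003498 (89782445–89783389), at 0.269 ± 0.0732 CPM (SD, n = 7). On chromosome 15 the 7 models at 27476084–27944836 had 3.01 ± 2.45 CPM (SD, n = 7), of which a single model, ENSRNOG00000013338, made up 92.4%. The 23 models at 25927781–26698857 had 0.643 ± 0.260 CPM (SD, n = 7) and 1 detected member. In these clusters the summed level did not follow the number of models.

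**Figure D2:**
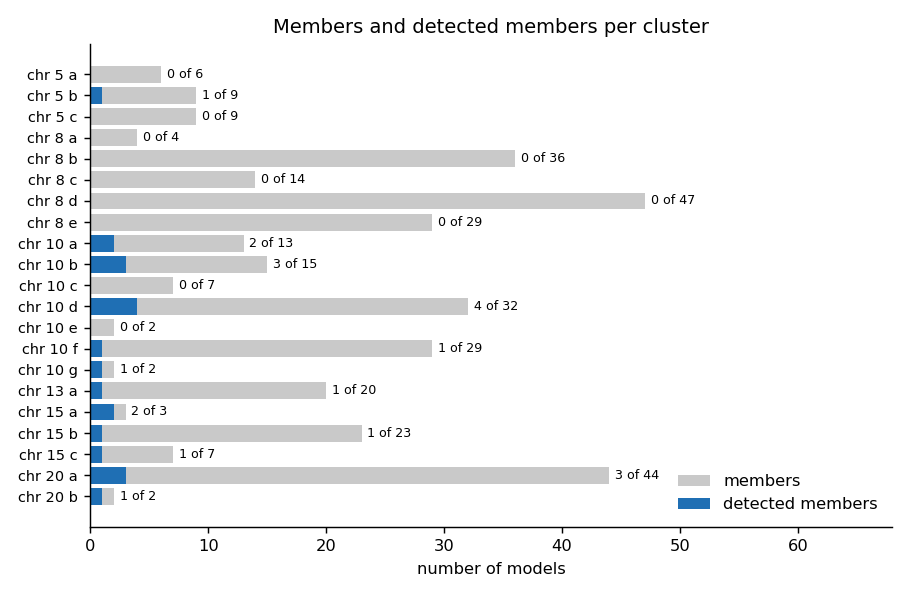
Horizontal bars give the number of members (grey) and of detected members (blue) in each of the 21 clusters, lettered in genome order within a chromosome; the x axis counts models. The 5 clusters of chromosome 8 have no detected member, and the 4 of 32 in a chromosome 10 cluster is the highest number.

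The highest clustered model, ENSRNOG00000013338 on chromosome 15 (27928940–27929866), was close in mean to the third isolated one, at 2.78 ± 2.35 against 3.22 ± 0.123 CPM (SD, n = 7 each). It was measured with whole counts, at 0.589 CPM in its lowest rat, a median of 2.24 and 7.47 in its highest. Rat 5 was highest and rat 6 lowest, 12.7 times apart, and in rat 5 it lay above ENSRNOG00000019979 (3.36 CPM) and ENSRNOG00000022540 (7.25 CPM). The other 20 detected clustered models had lower means than the 3 leading isolated ones. ENSRNOG00000032577 on chromosome 10 (44225129–44226058) had a lowest value of 1.01, a median of 1.33 and a highest of 1.68 CPM. ENSRNOG00000033170 on chromosome 10 (34740402–34741337) had a lowest value of 0.792, a median of 0.997 and a highest of 1.71 CPM. Both chromosome 10 models held fractions of shared reads, and their ranges over rats overlap.

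ENSRNOG00000039773, the first model of a chromosome 10 cluster (11951294–11952232), had a lowest value of 0.317, a median of 0.995 and a highest of 3.24 CPM, with whole counts. Again rat 5 was highest and rat 6 lowest, 10.2 times apart. ENSRNOG00000002858 on chromosome 10 (44488968–44489939) followed with 0.546, 0.846 and 1.48 CPM as lowest, median and highest, and whole counts. ENSRNOG00000028885 on chromosome 10 (34303922–34304869) had 0.322, 0.558 and 0.876 CPM in the same order, with shared reads. ENSRNOG00000001217 on chromosome 20 (11107145–11108095), 1 of a pair of models far from the large cluster, closed the 10 highest with 0.388, 0.475 and 0.667 CPM and whole counts. From the third place on, the ranges of neighbouring models in this order overlap.

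**Figure D3:**
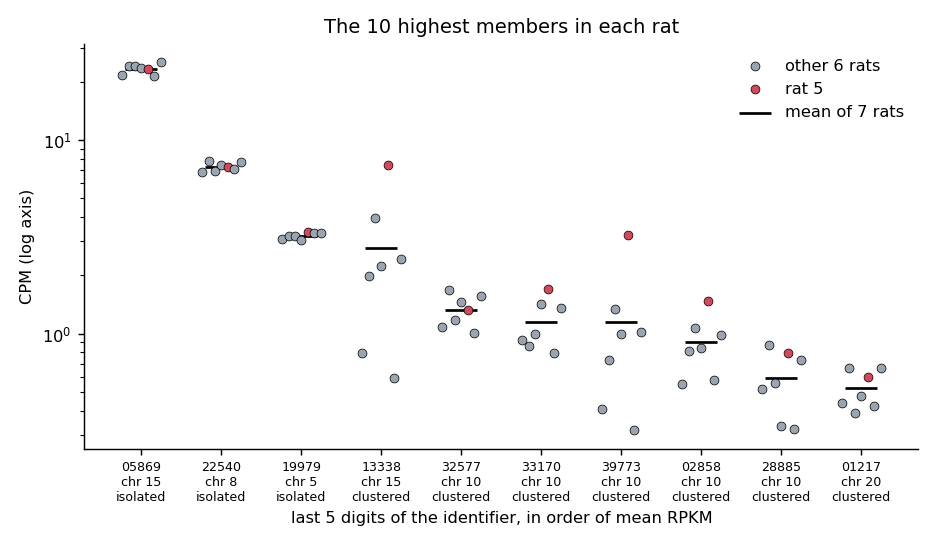
CPM on a log axis (y) of the 10 models with the highest mean RPKM (x axis, by the last digits of the identifier, chromosome and placement), 1 point per rat with rat 5 in red and a bar for the mean of 7 rats. The 3 isolated models at the left vary by at most 1.17 times between rats, whereas ENSRNOG00000013338 and ENSRNOG00000039773 span 12.7 and 10.2 times, with rat 5 highest.

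The order of the 10 highest was tested between neighbours, as the difference in log2(RPKM + 0.1) within each rat, by a two-sided exact sign-flip permutation test over 7 rats, adjusted over 9 pairs by the Benjamini-Hochberg method. The order comes from the same rats, so that its direction is no separate evidence. ENSRNOG00000005869 exceeded ENSRNOG00000022540 by 1.74 ± 0.06 and the latter exceeded ENSRNOG00000019979 by 1.20 ± 0.08 on that scale (SD, n = 7), each in 7 of 7 rats (exact p = 0.0156, the smallest that 7 rats allow, adjusted p = 0.0703). Of the 9 pairs 0 passed an adjusted threshold of 0.05 and 3 had an unadjusted exact p below it, the third being ENSRNOG00000002858 over ENSRNOG00000028885 (0.52 ± 0.45, exact p = 0.0469, adjusted p = 0.141). A pair can pass in this family only if 3 or more pairs reach the smallest p. The other 6 differences were 0.11 to 0.64, with 4 to 6 of 7 rats in their direction.

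The highest model of each chromosome was compared in the same way, over 15 pairs. Each was picked by its mean in the same 7 rats, so that the test sets 6 chosen models side by side, not chromosomes, and the direction is again no separate evidence. On RPKM these models were ENSRNOG00000005869 at 25.9 ± 1.51 (chromosome 15), ENSRNOG00000022540 at 7.68 ± 0.384 (chromosome 8), ENSRNOG00000019979 at 3.29 ± 0.126 (chromosome 5), ENSRNOG00000032577 at 1.43 ± 0.274 (chromosome 10), ENSRNOG00000001217 at 0.548 ± 0.124 (chromosome 20) and ENSRNOG00000003498 at 0.285 ± 0.0774 (chromosome 13; SD, n = 7 each). All 15 pairs differed in 7 of 7 rats, by 0.75 to 6.10 in log2(RPKM + 0.1) (exact sign-flip permutation test, p = 0.0156, adjusted p = 0.0156). ENSRNOG00000005869 over ENSRNOG00000022540 and the latter over ENSRNOG00000019979 are the same tests as among the neighbours above. There the same exact permutation p gave an adjusted p of 0.0703, so that passing differs only through the family of pairs. The smallest difference was that of chromosome 20 over chromosome 13. With the highest clustered model of each chromosome instead, 13 of 15 pairs passed (adjusted p = 0.0180 for each of the 13) and the order became chromosome 15, 10, 20, 13, 5 and 8. The first 2 and the last 2 of that order did not pass: ENSRNOG00000013338 over ENSRNOG00000032577 by 0.64 ± 1.10 (exact permutation p = 0.203, adjusted p = 0.203) and ENSRNOG00000029023 of chromosome 5 over ENSRNOG00000031621 of chromosome 8, the latter not detected, by 0.33 ± 0.37 (exact permutation p = 0.0781, adjusted p = 0.0837; SD, n = 7 each).

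The isolated models, whose sum is nearly all from the 3 highest, added up to 32.2 CPM in the lowest rat, 35.0 at the median and 36.9 in the highest, a range of 1.15 times. The low isolated models varied more, by 3.56 times for ENSRNOG00000015042, 3.32 times for ENSRNOG00000009703 and 5.25 times for the sum of the 6 that were not detected. The clustered models summed to 10.3 CPM in the lowest rat, rat 6, 16.9 at the median and 31.8 in the highest, rat 5, a range of 3.10 times. Rat 1 was close to rat 6, at 11.1 CPM, and the second highest rat had 19.6 CPM. Rat 5 thus stood 1.89 times above the median of the other 6, which had 15.6 ± 4.01 CPM (SD, n = 6) and a range of 1.91 times. Its excess was spread unevenly over clusters: rat 5 had the highest sum in 13 of the 21 clusters and in 8 of the 11 with 10 or more models. Rat 7 was highest in 6 of the 21. The clusters were measured in the same libraries, so that these counts are not independent. Some of the 13 had very few counts, such as 2.91 per rat in a chromosome 5 cluster. The 7 models at 27476084–27944836 of chromosome 15 had 7.91 CPM in rat 5 and 0.694 to 4.19 CPM in the others. Without the highest clustered model the ratio of rat 5 was 1.66. The excess also showed in the 332 clustered models below the detection limit, whose sum was 9.73 CPM in rat 5 and 3.94 to 7.01 CPM in the other rats.

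Of the 26 detected models 12 (46.2%) had their highest CPM in rat 5, against 6.14% of all 16670 detected models, of which most, 54.2%, were highest in rat 7. The TMM scaling factor of edgeR, which CPM leaves out, was 1.10 in rat 7 and 0.943 to 1.02 in the others. Which rat is highest can depend on this scaling, so that 6.14% is no neutral background. The shares were not recounted with it. Of the 21 detected clustered models 7 (33.3%) were at least 2 times as high in rat 5 as at the median of the other rats, against 1.09% of all detected models. These shares were not matched for level either, and low counts vary more by counting alone. The 7 models lay in 6 clusters on chromosomes 10, 15 and 20, at 2.03 to 4.66 times. ENSRNOG00000032488 on chromosome 20 (416557–417510), with shared reads, had the largest ratio: it had 0.0702 CPM in its lowest rat, a median of 0.285 and 0.930 CPM in rat 5. ENSRNOG00000006746 on chromosome 15 (12608540–12609487), with whole counts, had 0 counts in rat 6, a median of 0.240 CPM and 0.710 CPM in rat 5. The other 14 clustered models ranged from 0.581 to 1.79 times, so that the excess of rat 5 was not common to all of them. The 2 isolated models on chromosome 15 with low levels were lower in rat 5, at 0.734 times for ENSRNOG00000015042 and 0.493 times for ENSRNOG00000009703.

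Pearson's r of log2(CPM + 0.1) over the 7 rats is given here as a measure of likeness only, since 7 points that include the high values of rat 5 carry little else. Of the 25 other detected models, those most like ENSRNOG00000013338, a model chosen for this after its values were seen, were ENSRNOG00000039773 on chromosome 10 (r = 0.985), ENSRNOG00000002858 on chromosome 10 (r = 0.984) and ENSRNOG00000006734 on chromosome 15 (r = 0.937). Its r was above 0.9 with 5 of the 25 and had a median of 0.361. The models most like ENSRNOG00000005869 were ENSRNOG00000008800 on chromosome 15 (r = 0.867), ENSRNOG00000032577 (r = 0.811) and ENSRNOG00000003498 on chromosome 13 (r = 0.685), with 0 of 25 above 0.9 and a median of 0.511. The models most like the clustered one shared its high rat 5, whereas those most like the isolated one were not highest there.

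Receptor-length models elsewhere and the V1R block were set beside these for the same rats, as a description. The 265 models of this size on chromosome 3 had 8 detected members (3.02%) and summed to 8.80 to 18.1 CPM, highest in rat 5 at 1.65 times the median of the others. The 270 on chromosome 1 had 24 detected members (8.89%) and summed to 45.4 to 63.2 CPM, also highest in rat 5, at 1.15 times. Rat 7 was close to it there, at 62.2 CPM. The V1R models without a pseudogene name summed to 390.7 to 650.1 CPM and were at 494.6 CPM in rat 5, 0.885 times the median of the others. Of the 105 detected V1R models 0 were at least 2 times as high in rat 5 as at the median of the others, against 2 of the 8 on chromosome 3 and 5 of the 24 on chromosome 1. Over all detected models the share was 1.09%. These shares were not matched for level, and low counts vary more by counting alone. The median model of the V1R block had 2.85 CPM, against 0.269 CPM in the detected clustered models. Rats 1 and 6, which were lowest in the clustered models, were also lowest in the V1R block, at 450.9 and 390.7 CPM. The values of rat 5 were thus high in receptor-length models of several chromosomes and not in the V1R block. They were not high in the clustered models of chromosome 5, at 1.04 times the median of the others, where rat 7 was highest. The difference between these classes and the part of tissue composition or dissection in it were not tested.

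**Figure D4:**
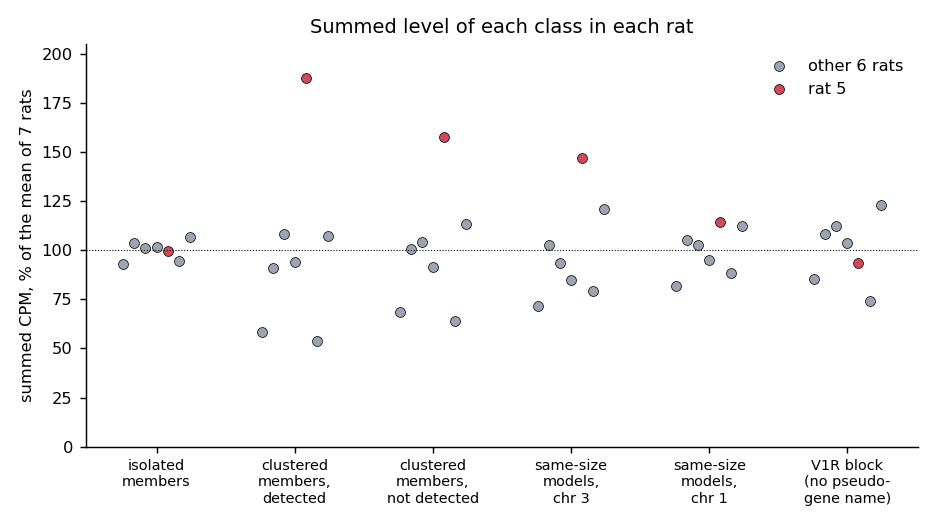
Summed CPM of each class of models in each rat, as a percentage of the mean of the 7 rats (y axis, from 0; the dotted line marks the mean); rat 5 is in red. Rat 5 is the highest rat for clustered models, detected or not, and for models of the same size on chromosomes 3 and 1, and lies near the mean for isolated models and below it for the V1R block.

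Between-rat variability was also taken from a fit over all detected models, as the biological coefficient of variation (the square root of edgeR's tagwise dispersion). Its median was 28.3% in the 26 detected models and 10.5% over all 16670. It was 29.3% in the 21 clustered models (17.5% to 87.1%) and 10.3% in the 5 isolated ones (6.68% to 33.5%). The fitted trend is higher at low counts, so each model was also set beside the trend at its own level: 14 of the 26 lay above it, against 15.8% of all detected models. The 3 leading isolated models lay below their trend (6.68%, 8.68% and 10.3% against 12.03%, 15.6% and 20.5%), whereas ENSRNOG00000006746 (87.1%), ENSRNOG00000032488 (70.2%), ENSRNOG00000013338 (67.3%) and ENSRNOG00000039773 (63.2%) lay furthest above, all with rat 5 highest. Without rat 5 the median was 24.4%, against 11.1% over all models. Detection was redone on the other rats for this, so that 24.4% covers 22 models and not the same 26. By the simpler measure of the highest rat at 2 times the lowest or more, 20 of the 26 passed, against 13.3% of all detected models. Of the clustered ones 18 of 21 and of the isolated ones 2 of 5 did. This measure is not matched for level, and counting noise alone widens the range at low counts. ENSRNOG00000029023 passed it at 2.97 times on 7 to 21 counts, with a coefficient of 25.2%, below its trend of 28.6%.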

How the data were processed

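What the authors deposited for each of the 7 rats is an estimated count for every model. The submitters' processing notes list STAR 2.7.1a as aligner and featureCounts 1.6.5 as counter, the latter given as 1.6.3 in the headers. Per the file headers, exon reads were counted by strand (setting 2, minimum mapping quality 0), multiply mapping reads were split between their matches, and the models were those of Ensembl release 67 (RGSC3.4) extended by the authors. The fractions can blur near-identical copies.

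CPM used each library's total count and RPKM also the model length. A count of 0 allows 3 counts. Pseudocounts were 0.1. Dispersions came from edgeR 4.0.16 (R 4.3.3; TMM, intercept only, rounded counts), with DESeq2 1.42.0 size factors as an alternative. All else was computed in Python 3.11.15 (pandas 2.3.3, scipy 1.17.1, numpy 2.4.6). Procedures were tested on simulated data.

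Named models are the 10 highest by RPKM, the highest of each chromosome, the highest isolated one, those at the detection limit and those most alike over rats; others were named after their values were seen. The rule for the members uses no expression value, but it and the lists were set with earlier results of these data known. The labels do not say more than that each library is 1 rat, and p-values measure the spread between these. The gene table (47357 genes, GRCr8) matched 0 of the 364 identifiers, so no sequence or symbol is given, and marker lists were not run.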

Additional observations from a re-analysis of the deposited data

Results flagged for a closer look

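Of 51 values examined (sums of classes, the 26 detected models and the share of the 10 highest), 9 had a rat far from the other 6 by Dixon's test at its 95% critical value for 7 samples. Chance gives about 1 in 20 for normally distributed values. The 51 values are not independent, since sums contain models that were also examined singly, and some rest on low counts. The 9 can therefore not be set against that rate. In 7 of the 9 the rat was rat 5, and in the other 2 it was rat 7.

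The summed level of the detected clustered models was 22.1 CPM in rat 5 and 6.33 to 12.7 CPM in the other rats. Among single models, rat 5 had 3.24 CPM of ENSRNOG00000039773 (others 0.317 to 1.34), 1.14 CPM of ENSRNOG00000006734 (others 0.166 to 0.416), 0.930 CPM of ENSRNOG00000032488 (others 0.0702 to 0.321), 0.710 CPM of ENSRNOG00000006746 (others 0 to 0.268) and 0.416 CPM of ENSRNOG00000033656 (others 0.105 to 0.229). These lie on chromosomes 10, 15 and 20. The models of the same size on chromosome 3 that were not detected summed to 6.87 CPM in rat 5 and 1.605 to 3.29 CPM in the others.

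Rat 7 stood apart in ENSRNOG00000029023 on chromosome 5, at 0.324 CPM against 0.109 to 0.166 CPM, and through it in the clustered models of chromosome 5, at 0.872 CPM against 0.513 to 0.661 CPM.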

How the results depend on the processing

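The number detected was 68 with 3 counts in place of 10, 158 with any count, 15 with 10 counts in all 7 rats and 14 with whole counts only. In that order, leaving out counts within 1.5 times of the original, chromosome 5 had 6, 13 and 1, chromosome 8 had 5 and 20, chromosome 10 had 26, 59, 6 and 3, chromosome 13 had 3 and 10, chromosome 15 had 12, 25 and 4, and chromosome 20 had 16, 31, 2 and 2. A wider length window gave 5 on chromosome 5 and 3 on chromosome 8. The share of clustered models detected was 17.8% with 3 counts. Scaled to totals without the 10 most abundant models, the summed CPM was 96.4 in all, and 7.19, 14.998, 15.9, 1.23, 52.1 and 4.95 on chromosomes 5, 8, 10, 13, 15 and 20. With whole counts only it was 21.1 in all, and 3.04, 0.505, 4.49 and 1.30 on chromosomes 10, 13, 15 and 20. Chromosomes 8 and 5 stayed within 1 SD, at 7.96 and 3.77, so that chromosome 8 then led. TMM and DESeq2 factors moved no sum beyond 1 SD. The median coefficient of variation was 42.6% with no filter (16.0% over all models) and 30.0% with whole counts.

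The following alternatives were chosen after seeing the data. Without isolated models the sum was 17.9 CPM in all, and 0.633, 0.853 and 4.41 on chromosomes 5, 8 and 15, and the 10 highest held 51.3%. The excess of rat 5 over the median of the others in clustered models was 1.64 times in those not detected, 2.17 with whole counts and 1.63 without the 5 highest.

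Leaving out each rat in turn gave 22 to 26 detected models in all, 8 to 11 on chromosome 10, 6 to 7 on chromosome 15 and 3 to 4 on chromosome 20, sums of 50.2 to 54.1 CPM, a share of the 10 highest of 81.0% to 82.2% and a coefficient of variation of 24.4% to 28.9%. Without rat 5, ENSRNOG00000039773 lay below ENSRNOG00000002858, by -0.062 on the log2 scale. That difference ranged from -0.062 to 0.24 over the rats left out. The cause of these changes was not tested. No paired analysis between groups was possible because there is only 1 group of rats, so that no groups share replicate numbers. Differences between models were taken within each rat and are paired in that sense.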
